A study of Mus musculus with 48 samples.

Results

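This report concerns the effect of a Cre virus, set against an empty virus, on gene expression in resting primary lung fibroblasts that carry a biosensor for active Gaq. Its main comparison is between 6 of the 48 libraries of the study, 3 with the Cre virus and 3 with the empty virus. They were taken by their labels from the table of the Gaq line. The fibroblasts were isolated from the lungs of mice heterozygous for the Gaq*-BERKY3 allele, and 160000 cells were seeded per well. The Cre group received AAV2/1-CMV-Cre, an adeno-associated virus that drives Cre recombinase from the CMV promoter, and the control group received AAV2/1-CMV-empty. Both viruses were used at a 1:1000 dilution with polybrene. All 6 wells were resting, which here means that the medium was exchanged for fresh medium without agonist 90 min before RNA isolation. The labels give no age or sex for the animals, and replicate numbers are the only mark of what was repeated. The spread behind the p-values is that between libraries and may be technical. It was estimated over all 12 libraries of the Gaq line, of which 6 received 100 µM of the agonist peptide TRAP-6 for 90 min. The Cre and empty-virus groups both carry the allele, and the line has no group with Cre in cells lacking it. An effect of the recombinase and an effect of the biosensor therefore cannot be told apart. Later comparisons also use lung fibroblasts from Gai*-BERKY3 and Ga13*-BERKY3 mice, given the same viruses.

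Gaq is the alpha subunit of a heterotrimeric G protein. Once a receptor has loaded it with GTP it activates phospholipase C beta, which makes the second messengers that release calcium from internal stores and activate protein kinase C, and it is switched off by RGS proteins that speed GTP hydrolysis. BERKY biosensors are luminescent proteins that bind the GTP-loaded form of one alpha subunit class, and in these mice Cre recombination turns their expression on. In lung fibroblasts, Gaq is used by receptors for thrombin, endothelin, bradykinin and nucleotides, agonists known for effects on contraction, growth and matrix production.

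The biosensor sequence separated the groups without overlap. It had 2846, 1604 and 1561 counts in the Cre libraries, against 10, 3 and 13 counts in the empty-virus libraries. In CPM, the counts of a gene per 1000000 counts of its library after TMM scaling, this was 84.9 ± 4.91 with Cre virus and 0.408 ± 0.208 with empty virus (SD, n = 3 each), a log2 fold change of 7.63 ± 0.29 (SE; edgeR's quasi-likelihood test, Benjamini-Hochberg adjusted p = 4.89e-07). The 6 libraries held 17448955 to 32710883 counts each, the deepest being Cre replicate 1. Replicate pairs differed by more than sampling noise, which cannot show whether they came from separate cultures. Each library was treated as 1 sample. Markers of fibroblasts made up 43820 to 47440 summed CPM in the Cre libraries and 38350 to 41430 in the empty-virus libraries. Most of this sum was Col1a1, Col1a2 and Col3a1, at means of 19194, 13483 and 9034 CPM with Cre virus. With empty virus their means were 17182, 11880 and 6503 CPM. Of the 14 fibroblast markers these 3 passed the test described below as higher and Npnt as lower (log2 fold change -0.37), so the sum mostly follows these collagens. Macrophage markers summed to 455 to 594 CPM with Cre and 467 to 650 CPM with empty virus, and mesothelial markers to 833 to 941 CPM with Cre and 651 to 809 CPM with empty virus. Endothelial markers stayed at 17.1 to 20.6 CPM with Cre and 16.6 to 19.5 CPM with empty virus, and lung epithelial markers at 30.2 to 38.4 CPM with Cre and 33.2 to 38.8 CPM with empty virus. Of the mesothelial list, Upk3b and Gpm6a passed the test described next and all 8 tested members had positive fold changes; the part of mesothelial cells in the results below was not tested. In such bulk samples, fewer cells of a type and less RNA per cell cannot be told apart.

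Cre virus changed the resting fibroblasts modestly but across many genes. Of 15528 genes tested with edgeR's quasi-likelihood test, 411 were called, that is, had a Benjamini-Hochberg adjusted p under 0.05 (2.65%): 199 rose (1.28%) and 212 fell (1.37%). Most changes were small. Only 3 genes rose and 9 fell by 2-fold or more, and 33 rose and 34 fell by 1.5-fold or more; the median log2 fold change was 0.34 among the genes called up, -0.33 among those called down and 0.0004 over all genes tested. In 410 of the 411 the Cre and empty-virus values did not overlap, where over all tested genes 8.62% had every Cre library higher and 8.29% every Cre library lower. The genes called had more counts than most, with a median of 64.8 CPM in Cre libraries for those that rose and 74.4 CPM for those that fell, against 15.7 CPM over all genes. Their longest annotated transcripts had a median of 4657 bases for genes that rose and 3378 bases for genes that fell, against 3160 bases over all genes, with medians of 50.7%, 51.2% and 50.6% GC. The count fell to 259 without Cre replicate 1 and to 267 without Cre replicate 2, and stayed between 290 and 523 without each of the other 4 resting libraries.

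**Figure D1:**
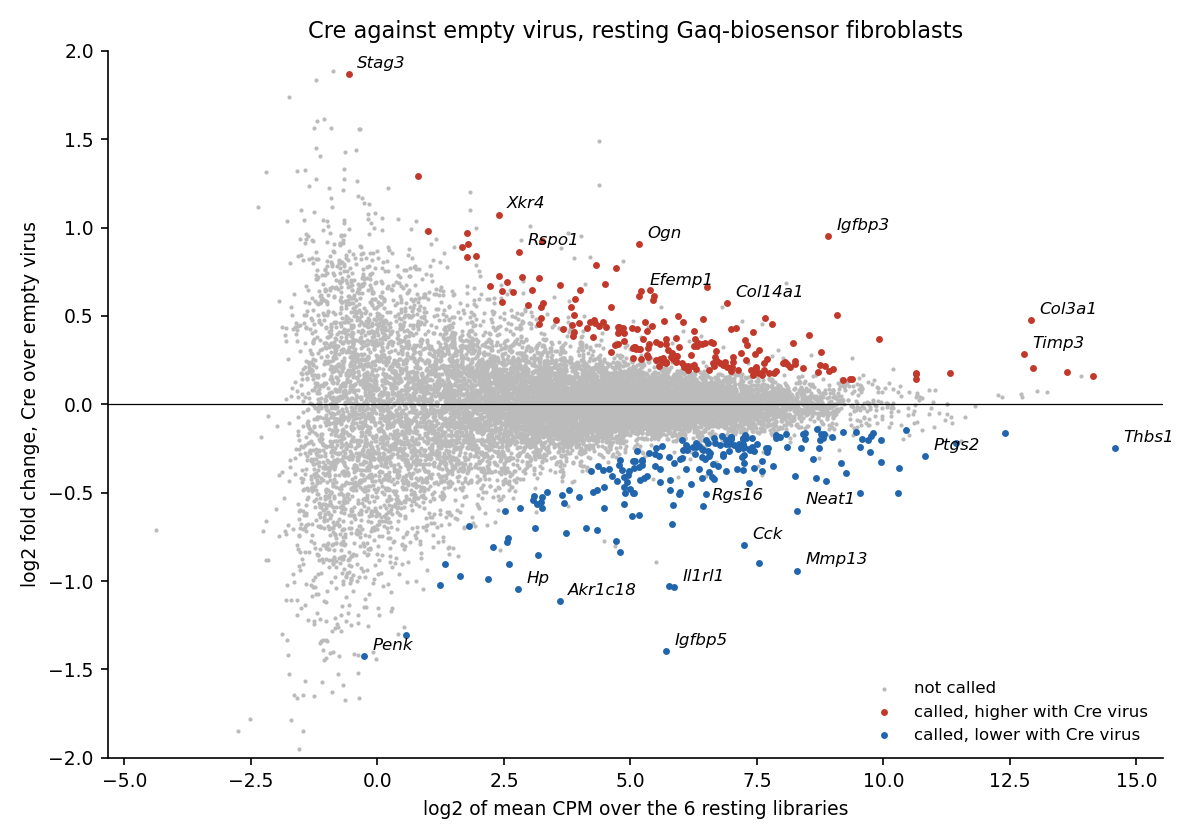
Each point is a tested gene, with the log2 of its mean CPM over the 6 resting libraries on the horizontal axis and its log2 fold change, Cre over empty virus, on the vertical axis; red marks the 199 genes called higher and blue the 212 called lower with Cre virus. Most called genes lie within 1 log2 unit of 0, Igfbp3 (0.95) rose and Igfbp5 (-1.40) fell, and 3 genes lie beyond the axis limits of 2 log2 units.

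Of the 6 genes with the smallest p, 5 fell and 1 rose. Il1rl1, which encodes the receptor for interleukin-33, had 38.0, 37.6 and 39.2 CPM in the Cre libraries, against 77.4, 85.3 and 72.9 CPM with empty virus. Every Cre library was at about the same level and lay far below every empty-virus library (log2 fold change -1.04 ± 0.07; adjusted p = 1.47e-12). Cck, the precursor of the peptide hormone cholecystokinin, had 106, 118 and 109 CPM with Cre virus and 187, 202 and 188 CPM with empty virus (-0.80 ± 0.05; adjusted p = 1.10e-11). Star, which carries cholesterol into mitochondria for steroid synthesis, had 42.2, 42.2 and 46.6 CPM with Cre virus and 68.1, 73.6 and 67.9 CPM with empty virus (-0.68 ± 0.07; adjusted p = 1.91e-07). Uaca fell by 0.44 on the log2 scale (SE 0.05; adjusted p = 2.85e-07), and Rgs16 is described with the Gq pathway below. The gene that rose was Col14a1, a fibril-associated collagen, at 142, 152 and 136 CPM in Cre libraries against 94.4, 96.6 and 98.0 CPM in empty-virus libraries (0.57 ± 0.06; adjusted p = 7.22e-08). All 6 kept their call whichever resting library was left out.

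By size of change, a binding protein of insulin-like growth factors stood among the 12 top genes in either direction. Igfbp5 had 25.6, 30.5 and 30.3 CPM with Cre virus and 60.6, 106 and 60.3 CPM with empty virus (-1.40 ± 0.23; adjusted p = 0.0164); empty-virus replicate 2 stood above its group, and the call was lost without any one of the 3 Cre libraries. Igfbp3 went the other way, at 604, 629 and 673 CPM with Cre virus against 302, 294 and 390 CPM with empty virus (0.95 ± 0.12; adjusted p = 0.00281). Of the other genes with the lowest fold changes, Akr1c18, a progesterone-metabolising reductase, fell by 1.12, the plasma protein gene Hp (haptoglobin) by 1.05, the urea transporter gene Slc14a1 by 0.99 and Cpne7 by 0.90 on the log2 scale, and these 4 and Il1rl1 kept their call in every fit that left out 1 library. Penk, Il11, Mast1, Adora2a, Mmp13 and Samd11 also fell by between 0.90 and 1.43, but each lost its call in at least 4 of those 6 fits. Of those with the highest, Xkr4 (1.07), Igfbp3, Cttnbp2 (0.92), Ogn (0.90) and Rspo1 (0.86), a secreted enhancer of Wnt signalling, kept their call in every such fit. Stag3, Cdca7, Mlana, Ednrb, Cybrd1, Gbp3 and Aspn, with log2 fold changes of 0.83 to 1.87, did not, and all 7 were expressed under 7 CPM on average.

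**Figure D2:**
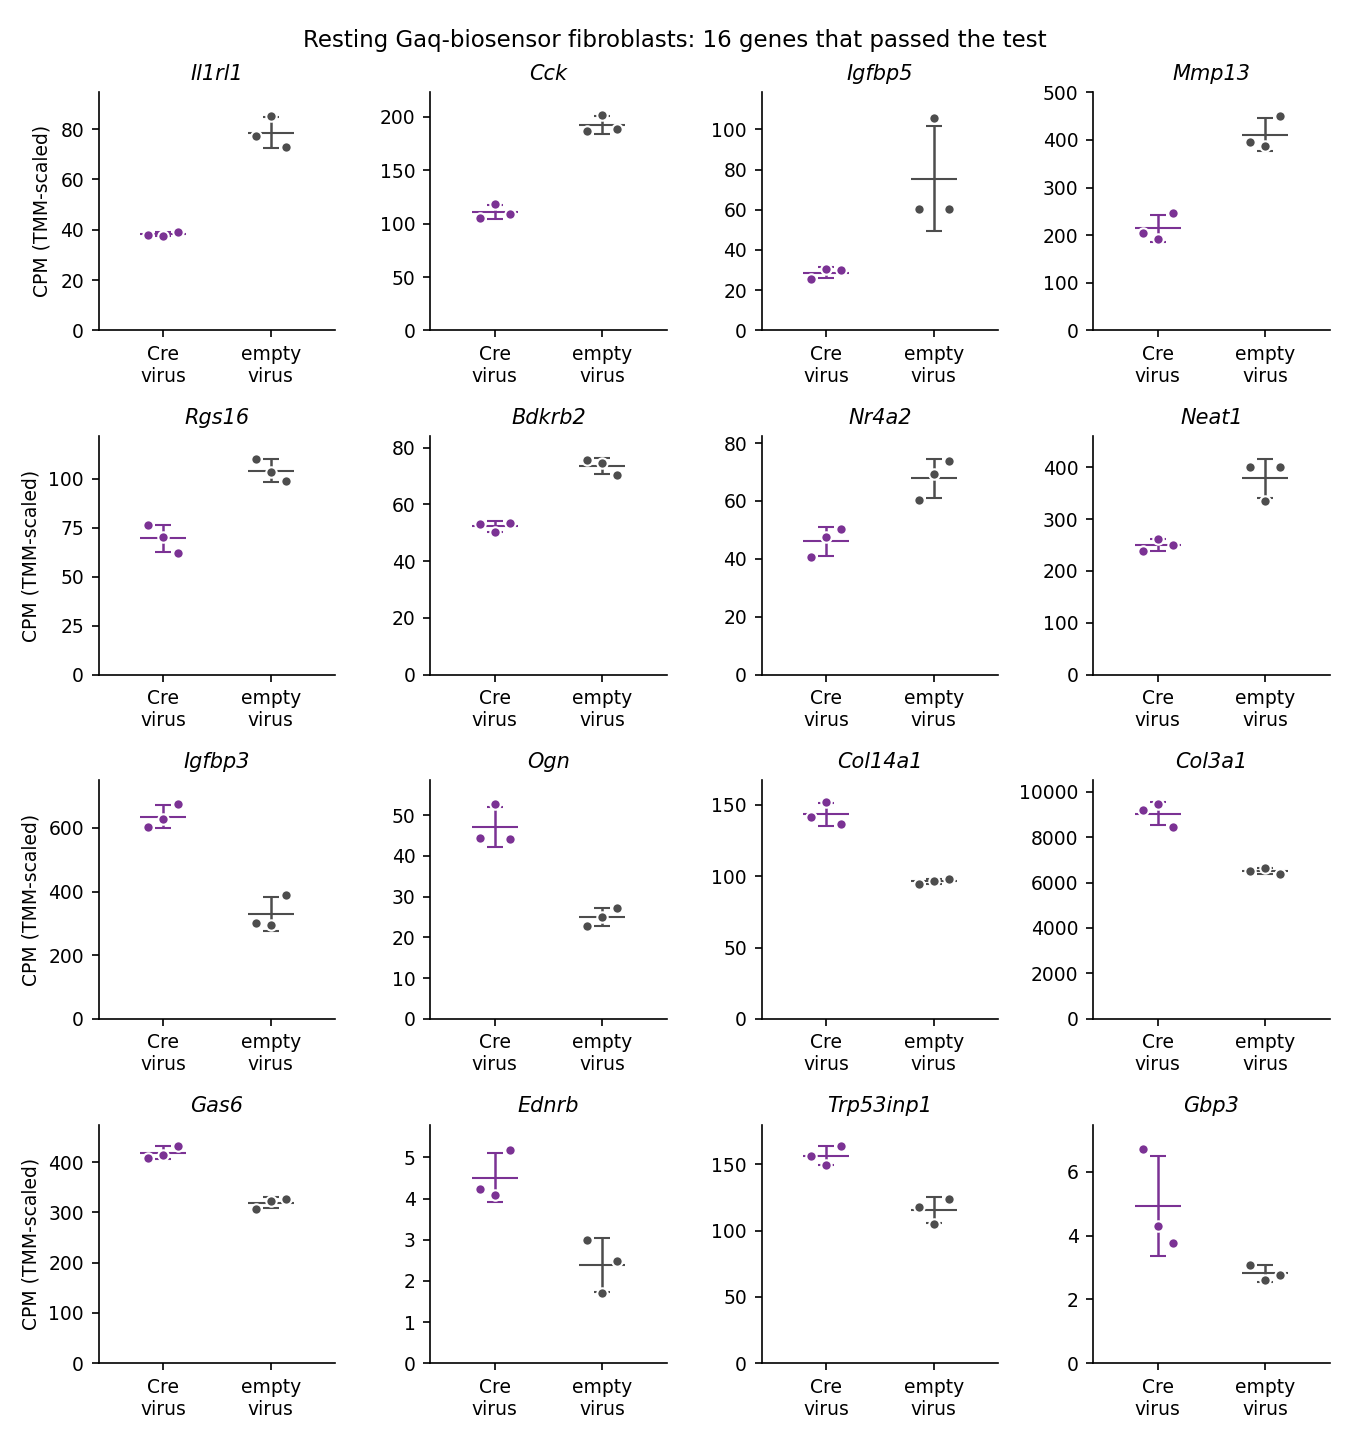
TMM-scaled CPM of 16 called genes in each resting library; points are the 3 replicates, with Cre virus on the left and empty virus on the right of each panel, and bars give the mean and SD. The 8 genes of the upper rows are lower in every Cre library than in any empty-virus library, and the 8 of the lower rows are higher in every Cre library.

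Of 30 tested genes for Gq family alpha subunits, phospholipase C isoforms, inositol trisphosphate receptors and protein kinase C, 1 was called (3.33%, against 2.65% of all genes): Marcks, a protein kinase C substrate, rose by 0.18 ± 0.04 (adjusted p = 0.0179), and that call was lost without Cre replicate 2, Cre replicate 3 or empty-virus replicate 1. Gnaq had 113, 117 and 121 CPM with Cre virus and 120, 102 and 103 CPM with empty virus, with overlapping groups and a log2 fold change of 0.11 ± 0.06 (adjusted p = 0.418). Gna11, its close relative, stood at -0.07 ± 0.05 (adjusted p = 0.660), and the phospholipases Plcb3 and Plcb4 at -0.08 ± 0.06 and 0.26 ± 0.09 (adjusted p = 0.654 and 0.160). None of 26 tested genes for other G protein subunits and adenylyl cyclases passed edgeR's test, 3 of them having an unadjusted p under 0.05; the closest were Gng2 at 0.52 ± 0.16 (adjusted p = 0.0758) and Adcy7 at -0.16 ± 0.05 (adjusted p = 0.0849).

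Among regulators, 1 of 15 tested genes was called (6.67%, against 2.65% of all genes). Rgs16, a GTPase-activating protein for Gq and Gi alpha subunits, had 76.2, 70.1 and 62.2 CPM with Cre virus and 110, 103 and 98.7 CPM with empty virus, a fall of 0.58 ± 0.06 on the log2 scale (adjusted p = 2.85e-07) that kept its call in every fit that left out 1 library. Rgs2, the RGS protein most selective for Gq, had 4.65, 4.54 and 5.54 CPM with Cre virus and 7.07, 6.32 and 6.32 CPM with empty virus; these groups did not overlap, but the fold change of -0.42 ± 0.15 did not pass (adjusted p = 0.172). Grk2, a kinase that also binds active Gq, stood at -0.11 ± 0.06 (adjusted p = 0.530).

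Receptors that can couple to Gq were called in both directions, 3 up and 3 down of 25 tested (24%, against 2.65% of all genes). Bdkrb2, the bradykinin B2 receptor, had 53.2, 50.2 and 53.4 CPM with Cre virus and 75.8, 74.8 and 70.5 CPM with empty virus (-0.49 ± 0.07; adjusted p = 1.37e-05). It was the only one of the 6 to keep its call in all fits that left out 1 library. The others that fell were S1pr3, a sphingosine 1-phosphate receptor (-0.35 ± 0.09; adjusted p = 0.0203), and F2r, the thrombin receptor PAR1 that TRAP-6 activates (-0.14 ± 0.04; adjusted p = 0.0467). F2r had 394, 397 and 380 CPM with Cre virus and 444, 422 and 426 CPM with empty virus, groups that did not overlap; its call was lost in 4 of the 6 fits that left out 1 library. Those that rose had few counts: Ednrb, an endothelin receptor, at 4.22, 4.10 and 5.19 CPM with Cre virus against 2.98, 1.69 and 2.48 CPM with empty virus (0.91 ± 0.22), P2ry6, a UDP receptor (0.73 ± 0.18), and Adra1b, an alpha-1 adrenergic receptor (0.56 ± 0.15). The count of 6 became 3 without Cre replicate 1 or empty-virus replicate 2 and 2 without Cre replicate 2.

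Among immediate early, ERK feedback and calcium signalling genes the called members fell. Of 40 tested immediate early and ERK feedback genes, 7 fell and 0 rose (17.5% called down, against 1.37% of all genes), and the list's median log2 fold change was -0.09 (0.0004 over all genes). Nr4a2, an orphan nuclear receptor, had 40.6, 47.4 and 50.4 CPM with Cre virus and 60.4, 69.2 and 73.8 CPM with empty virus (-0.57 ± 0.10; adjusted p = 0.00931). Its relatives Nr4a3 (-0.40 ± 0.08) and Nr4a1 (-0.18 ± 0.05) fell as well, as did the ERK phosphatase genes Dusp5 (-0.32 ± 0.07) and Dusp4 (-0.16 ± 0.04), the ERK pathway inhibitor gene Spred2 (-0.20 ± 0.05) and Phlda1 (-0.17 ± 0.05). Fos and Egr1, the classic members, did not pass: Fos stood at -0.04 ± 0.15 (adjusted p = 0.962) and Egr1 at -0.11 ± 0.05 (adjusted p = 0.297). None of the 7 kept its call in every fit that left out 1 resting library. Of the 6 such fits, Nr4a2 kept it in 5, Dusp5 in 4 and Nr4a3 and Dusp4 in 3. Nr4a1 and Spred2 kept it in 2 and Phlda1 in 1. The list's count of falls was 4 without Cre replicate 1 or Cre replicate 2. It was 2 without empty-virus replicate 1 or 2. A list of 24 calcium and NFAT genes held mostly signalling components, such as NFAT factors, calcineurin subunits and calcium channels, with a few target genes. Of these 24, 2 target genes fell (8.33%, against 1.37% of all genes), and both kept their call in every fit that left out 1 library. Ptgs2, the inducible cyclooxygenase, fell by 0.29 (SE 0.05, adjusted p = 0.000104), and Rcan1, a feedback inhibitor of calcineurin, by 0.30 (SE 0.06, adjusted p = 0.00275). Among targets of the actin-regulated factors, 1 of 30 SRF and MRTF targets was called (3.33%, against 2.65% of all genes): Tagln2 fell (-0.16 ± 0.04). Its call was lost in 5 of the 6 fits without 1 library. Of 22 YAP and TAZ targets 3 were called (13.6%, against 2.65% of all genes). Ankrd1 fell, at 173, 174 and 160 CPM with Cre virus against 230, 223 and 206 CPM with empty virus (-0.37 ± 0.05; adjusted p = 3.66e-06), while Dlc1 and Tead1 rose by 0.23 and 0.19. The call of Tead1 was lost in 4 of the 6 fits without 1 library. Ccn1 and Ccn2, targets of the same factors, were at -0.01 ± 0.05 and -0.07 ± 0.04 (adjusted p = 0.953 and 0.465).

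Of 39 tested extracellular matrix and myofibroblast genes 12 rose and 5 fell (43.6% called, against 2.65% of all genes), with a median of 0.10. The count of 17 became 11 without Cre replicate 1 or Cre replicate 2. Like the other lists, this one was chosen with earlier results of these data known. The share over all genes is not matched for expression level. Col3a1, the chain of type III collagen, had 9207, 9444 and 8451 CPM with Cre virus and 6510, 6626 and 6374 CPM with empty virus, the highest empty-virus library lying well under the lowest Cre library (0.47 ± 0.06; adjusted p = 0.000228). Col6a1 had 141, 152 and 144 CPM with Cre virus and 107, 107 and 112 CPM with empty virus (0.42 ± 0.06; adjusted p = 4.82e-06), and its partner chain Col6a2 rose by 0.37. The chains of type I collagen rose by less, Col1a2 by 0.18 ± 0.04 and Col1a1 by 0.16 ± 0.04 (adjusted p = 0.00909 and 0.0243), with calls lost without Cre replicate 1 or Cre replicate 2 for both, and for Col1a1 also without empty-virus replicate 1 or 3. Timp3, a matrix-bound protease inhibitor, rose by 0.28 ± 0.04, and the elastic fibre genes Eln, Fbn1 and Fbln5 by 0.35, 0.18 and 0.21, each of these 3 losing its call in at least 3 of the 6 fits. The falls were Mmp13, Timp1 (-0.33), Col15a1 (-0.26), Tnc (-0.22) and Thbs1. Thbs1, which encodes the adhesive glycoprotein thrombospondin 1, had 22435, 22194 and 22756 CPM with Cre virus against 27281, 26278 and 26411 CPM with empty virus (-0.25 ± 0.03; adjusted p = 1.65e-05). Acta2, the marker of contractile myofibroblasts, stood at 0.07 ± 0.05 (adjusted p = 0.634).

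The small leucine-rich proteoglycan, complement, metalloproteinase, plasminogen, interleukin-6 and prostaglandin families below were assembled after the calls had been seen and are described only. Of 12 tested small leucine-rich proteoglycans, which bind collagen fibrils, Ogn, Aspn, Podn and Prelp rose and 0 fell (33.3% called, against 2.65% of all genes). Ogn had 44.4, 52.7 and 44.2 CPM with Cre virus and 22.8, 25.1 and 27.1 CPM with empty virus (0.90 ± 0.11; adjusted p = 5.61e-05), and Podn 113, 121 and 103 CPM with Cre virus and 69.7, 72.0 and 70.4 CPM with empty virus (0.66 ± 0.07; adjusted p = 3.44e-06). Aspn and Prelp lost their call in 4 and 3 of the fits that left out 1 library. Of 18 complement genes 3 rose and 0 fell (16.7% called, against 2.65% of all genes). Those that rose included C4b (0.50 ± 0.08) and C1ra (0.32 ± 0.08). The aggrecanase gene Adamts5, singled out after its values were seen, rose too, with 241, 262 and 271 CPM with Cre virus against 184, 178 and 203 CPM with empty virus (0.45 ± 0.05; adjusted p = 2.85e-07).

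Of 15 tested matrix metalloproteinases Mmp13, Mmp10 and Mmp8 fell and Mmp11 rose (26.7% called, against 2.65% of all genes). Mmp10, or stromelysin 2, had 129, 122 and 138 CPM with Cre virus and 233, 234 and 256 CPM with empty virus (-0.90 ± 0.07; adjusted p = 2.96e-07). The fall of Mmp13, at 205, 192 and 247 CPM with Cre virus against 396, 387 and 450 CPM with empty virus, was as large (-0.94 ± 0.19) but less certain: its adjusted p of 0.0393 was lost in each of the 6 fits without 1 library. Of 13 genes of the plasminogen and thrombomodulin systems 6 fell and 0 rose (46.2% called, against 2.65% of all genes). Serpinb2, an inhibitor of plasminogen activators, had 26.5, 26 and 23.8 CPM with Cre virus and 39.7, 42.9 and 36.2 CPM with empty virus (-0.63 ± 0.08; adjusted p = 1.77e-06), and Thbd, or thrombomodulin, 601, 632 and 612 CPM with Cre virus and 927, 897 and 786 CPM with empty virus (-0.50 ± 0.05; adjusted p = 2.08e-06). Plau, the urokinase gene, its receptor gene Plaur and Procr fell by 0.38, 0.22 and 0.26 and lost their calls in 4, 4 and 6 of the 6 fits, which took the family's count to 3 without Cre replicate 3 or empty-virus replicate 2.

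Of 40 growth factors and ligands 5 rose and 8 fell (32.5% called, against 2.65% of all genes). The falls that kept their call in every fit without 1 library included Vegfa (-0.27 ± 0.04), Fgf7 (-0.29 ± 0.05), Hgf (-0.43 ± 0.08), Inhba (-0.36 ± 0.06) and the BMP antagonist gene Grem1, at 512, 499 and 514 CPM with Cre virus and 660, 623 and 640 CPM with empty virus (-0.33 ± 0.04; adjusted p = 2.55e-06). The rises that did so were Igfbp3, Igfbp4 (0.35 ± 0.06) and Gas6, a ligand of TAM receptor kinases, at 409, 415 and 433 CPM with Cre virus against 307, 323 and 327 CPM with empty virus (0.39 ± 0.04; adjusted p = 5.67e-07). Tgfb1 fell by 0.29 (SE 0.05) while its receptor gene Tgfbr2 rose by 0.21 (SE 0.04). Of 31 genes for cytokines, chemokines and NF-kB factors 6 were called (19.4%, against 2.65% of all genes). Of these 5 fell, among them Il1rl1, Saa3 (-0.77 ± 0.12) and Vcam1 (-0.20 ± 0.04), and Icam1 rose by 0.19, a call lost in 5 of the 6 fits without 1 library.

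In the interleukin-6 family, 5 of 16 tested genes fell and 2 rose (43.8% called, against 2.65% of all genes). The ligands called fell and the receptor chains called rose. Lif had 343, 350 and 348 CPM with Cre virus and 472, 473 and 444 CPM with empty virus (-0.42 ± 0.05; adjusted p = 1.74e-05), and Clcf1 (-0.43 ± 0.08) fell with it. Il11 and Cish, which fell by 1.03 and 0.52, lost their calls in 5 and 4 of the 6 fits. Il6st, the signalling receptor chain shared by the family, had 655, 681 and 576 CPM with Cre virus and 468, 425 and 451 CPM with empty virus (0.51 ± 0.09; adjusted p = 0.0203), a call kept only in the fit without Cre replicate 3. Osmr, the oncostatin M receptor chain, rose by 0.24 ± 0.05 and kept its call throughout. Il6 itself was at -0.31 ± 0.15 (adjusted p = 0.453). Of 16 tested genes for prostaglandin synthesis and receptors 3 fell and 0 rose (18.8% called, against 2.65% of all genes). Pla2g4a, Ptgs2 and Ptges, which release arachidonic acid and convert it to prostaglandin E2, fell by 0.26, 0.29 and 0.36, and all 3 kept their call.

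Metalloproteinase and plasminogen system genes are textbook targets of AP-1, a dimer of Fos and Jun proteins, and the promoters were searched for its site, TGANTCA, which reads the same on both strands. The windows are those of RefSeq on GRCm38.p6, an older build than the GRCm39 of the counts, 300 bases from 250 before to 50 after each annotated start, and 154 of the 212 genes that fell and 139 of the 199 that rose had at least 1. The site was present in 12.1% of the 214 windows of genes that fell, 6.52% of the 184 windows of genes that rose and 5.53% of the 13864 windows of all tested genes. A cyclic AMP response element, TGACGTCA, was present in 2.34%, 0.543% and 2.83% of the same 3 sets of windows. An interferon response core, searched on both strands, was present in 3.74% of windows of genes that fell, 8.15% of windows of genes that rose and 3.05% of all windows. These shares are descriptions, with no test. Windows of 4 genes, chosen by hand, are shown, with the AP-1 letters in capitals. These genes fell, kept their call in every fit without 1 library and hold the site. Among the 131 called genes followed through those fits, Prdx1 also met these terms and is not shown. Other genes that fell and hold the site, such as Hmga1b and Olr1, were not followed.

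Mmp10 promoter, GRCm38.p6 chr9:7502092-7502391, plus strand: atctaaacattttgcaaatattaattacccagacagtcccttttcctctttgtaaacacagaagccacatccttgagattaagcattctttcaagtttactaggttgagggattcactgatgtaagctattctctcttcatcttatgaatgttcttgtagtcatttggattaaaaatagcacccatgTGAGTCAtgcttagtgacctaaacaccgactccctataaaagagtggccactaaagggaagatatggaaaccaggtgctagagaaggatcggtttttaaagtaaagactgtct
Serpinb2 promoter, GRCm38.p6 chr1:107511173-107511472, plus strand: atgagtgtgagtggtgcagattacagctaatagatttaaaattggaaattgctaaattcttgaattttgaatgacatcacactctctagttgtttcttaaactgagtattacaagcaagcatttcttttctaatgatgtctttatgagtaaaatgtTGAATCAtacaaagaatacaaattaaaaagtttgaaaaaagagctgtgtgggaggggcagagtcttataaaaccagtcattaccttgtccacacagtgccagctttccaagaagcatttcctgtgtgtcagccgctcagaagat
Lif promoter, GRCm38.p6 chr11:4257318-4257617, plus strand: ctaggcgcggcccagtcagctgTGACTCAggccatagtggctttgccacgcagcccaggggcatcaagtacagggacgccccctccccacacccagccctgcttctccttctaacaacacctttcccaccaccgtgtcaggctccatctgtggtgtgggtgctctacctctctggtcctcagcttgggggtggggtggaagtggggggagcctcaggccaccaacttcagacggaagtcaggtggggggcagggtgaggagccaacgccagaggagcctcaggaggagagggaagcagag
Rcan1 promoter, GRCm38.p6 chr16:92400029-92400328, minus strand: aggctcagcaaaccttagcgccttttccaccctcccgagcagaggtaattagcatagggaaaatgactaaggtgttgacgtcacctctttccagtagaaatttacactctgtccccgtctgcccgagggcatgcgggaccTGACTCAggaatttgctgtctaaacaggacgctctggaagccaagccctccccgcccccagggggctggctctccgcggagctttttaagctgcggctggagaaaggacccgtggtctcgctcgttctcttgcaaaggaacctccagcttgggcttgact

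The capitals begin 63, 94, 228 and 110 bases before the start in Mmp10, Serpinb2, Lif and Rcan1. Mmp10 holds TGAGTCA, Lif and Rcan1 hold TGACTCA and Serpinb2 holds TGAATCA, and the window of Rcan1 also holds the cyclic AMP response element. Of the other genes named here, Il11, Mmp13, Plaur, Procr, F2r and Prdx1 also held the site, and so did the rising genes Efemp1, Col6a1, Osmr, Cybrd1 and Adra1b.

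Stress and defence programmes gave a mixed picture. Of 35 p53 targets and DNA damage genes 7 rose (20%, against 1.28% of all genes) and 0 fell (median 0.11). Trp53inp1 had 157, 149 and 164 CPM with Cre virus and 118, 105 and 124 CPM with empty virus (0.43 ± 0.05; adjusted p = 1.52e-06), Eda2r rose by 0.34 ± 0.06 and Ccng1 by 0.22 ± 0.04, and these 3 kept their call in every fit without 1 library. Pltp (0.40), Tnfrsf10b (0.23), Ephx1 (0.18) and Zmat3 (0.17) did not, and the count became 3 without Cre replicate 1, Cre replicate 2 or empty-virus replicate 3; Pltp was the 1 called gene whose groups overlapped. The best known targets did not pass: Cdkn1a stood at 0.09 ± 0.05 (adjusted p = 0.447) and Mdm2 at -0.06 ± 0.05 (adjusted p = 0.653). edgeR called no member of the S phase and G2/M lists, 30 genes tested in each, where 3 and 1 had an unadjusted p under 0.05. Over all genes, 1917 of 15528 had one. edgeR called 0 of 34 unfolded protein response genes, 0 of 30 cholesterol genes and 0 of 26 glycolysis genes, where 11, 2 and 5 had an unadjusted p under 0.05. Of 22 Nrf2 targets 2 were called (9.09%, against 2.65% of all genes), the antioxidant genes Prdx1 and Txnrd1, which fell by 0.25 and 0.19. The call of Txnrd1 was lost without Cre replicate 2 or empty-virus replicate 1. Of 18 heat shock chaperones 3 were called (16.7%). The small heat shock protein gene Cryab fell by 0.31 (SE 0.05) and Hsph1 by 0.20, while Serpinh1 rose by 0.14. Hsph1 and Serpinh1 kept their call in 1 and 2 of the 6 fits without 1 library.

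Interferon-stimulated genes mostly had positive fold changes, and 1 passed the test. Of 51 tested, 47 had a positive fold change. The median was 0.44, the furthest from 0 of the lists with more than 1 gene tested, yet 1 was called (1.96%, against 2.65% of all genes). This was Gbp3, with 6.72, 4.32 and 3.76 CPM with Cre virus and 3.09, 2.60 and 2.75 CPM with empty virus (0.84 ± 0.23, adjusted p = 0.0411). That call was lost in 5 of the 6 fits without 1 library. The whole list summed to 1728, 1389 and 1445 CPM in the Cre libraries, against 1285, 1239 and 1329 CPM in the empty-virus libraries, with Cre replicate 1 well above the rest. Ifit1 had 43.3, 19.3 and 25.2 CPM with Cre virus and 17.9, 6.15 and 13.5 CPM with empty virus, with every Cre library above every empty-virus library (1.24 ± 0.66; adjusted p = 0.512), and Isg15 stood at 0.83 ± 0.41 (adjusted p = 0.473). Without Cre replicate 1 the list's median was 0.30, and without empty-virus replicate 3 it was 0.54. The part of Cre replicate 1 in the list's level was not tested beyond these values. A fit of the 6 resting libraries alone called 6 members of this list and 359 genes in all. The main fit called 1 member and 411 genes, so the list's count depends on which libraries set the spread.

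**Figure D3:**
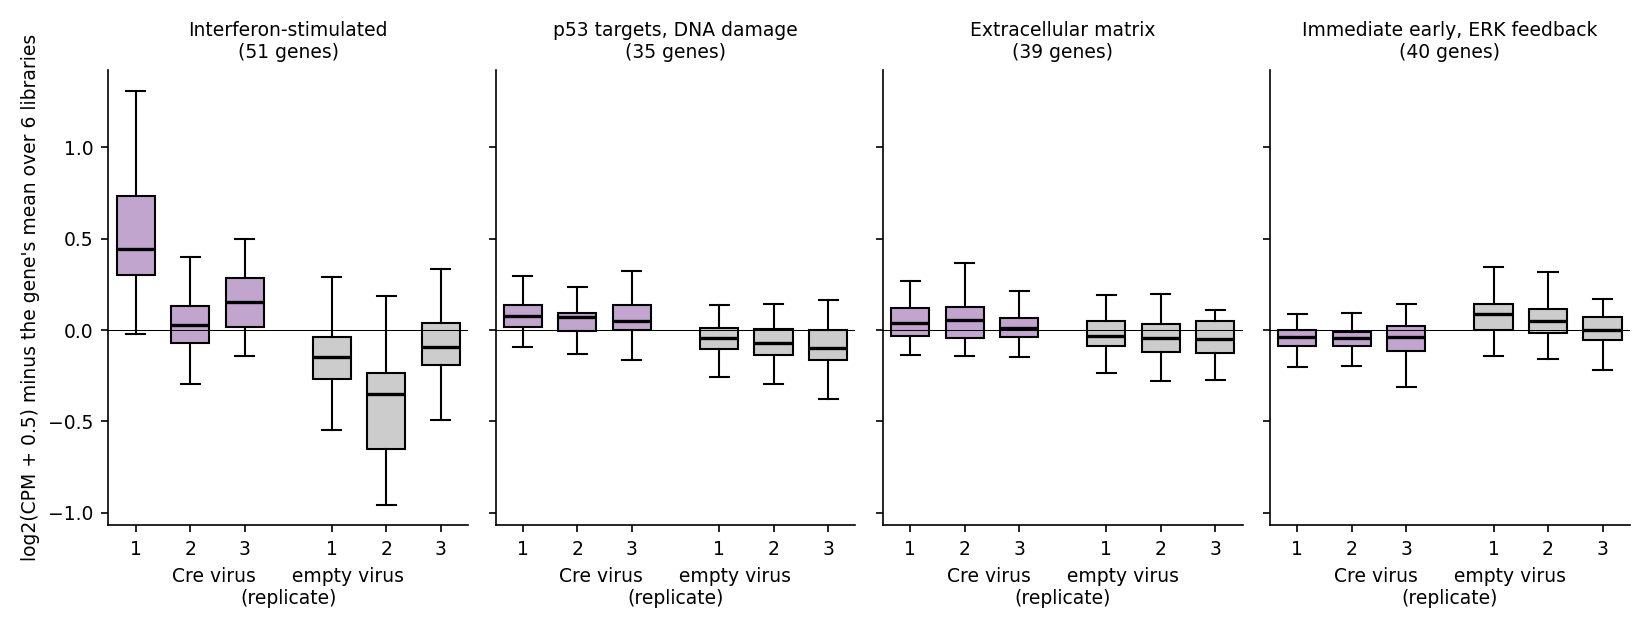
Levels of 4 gene lists in each resting library, Cre virus on the left and empty virus on the right of each panel; boxes show the quartiles over the list's genes of log2(CPM + 0.5) minus each gene's own mean over the 6 libraries, lines the medians and whiskers the range within 1.5 interquartile ranges. The interferon-stimulated list is highest in Cre replicate 1 (median 0.44) and lowest in empty-virus replicate 2 (median -0.35), while the medians of the p53 list lie between 0.05 and 0.07 in Cre libraries and between -0.10 and -0.05 in empty-virus libraries.

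**Figure D4:**
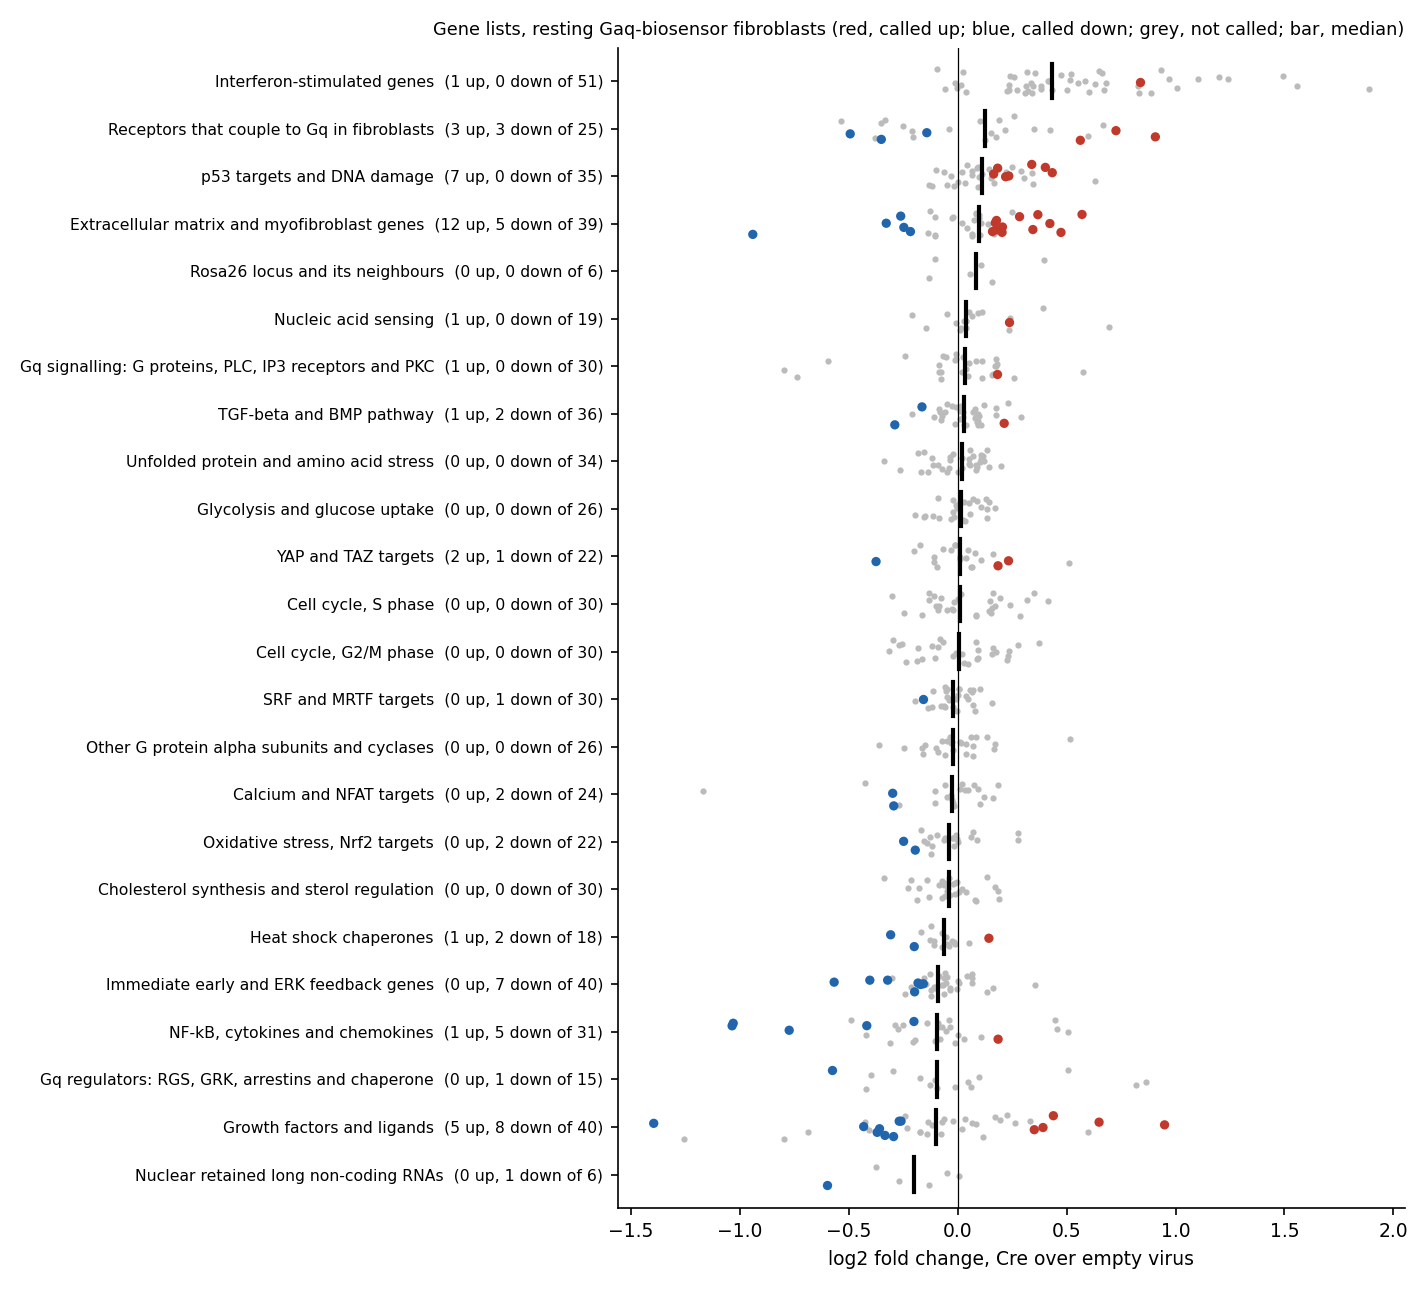
Log2 fold change, Cre over empty virus, of every tested member of 24 gene lists; red points were called higher, blue points called lower, grey points not called, and black bars are list medians. Matrix genes and growth factors hold the most called members, and interferon-stimulated genes the highest median with 1 called member.

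The nuclear long non-coding RNA Neat1, the scaffold of paraspeckles, had 238, 262 and 250 CPM with Cre virus and 400, 335 and 401 CPM with empty virus (-0.60 ± 0.08; adjusted p = 0.000407), whereas Malat1, its neighbour, was at -0.13 ± 0.15 (adjusted p = 0.816). The Rosa26 transcript Gt(ROSA)26Sor, from a locus often used for transgenes, was at 0.16 ± 0.21 (adjusted p = 0.853), and edgeR called 0 of 6 genes in and around that locus. Of these 6, 2 had an unadjusted p under 0.05. In the TRAP-6 wells of the Gaq line Gt(ROSA)26Sor was at 0.63 ± 0.22 (adjusted p = 0.127).

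The 6 libraries of the same line that received 100 µM TRAP-6, a peptide that activates PAR1, for 90 min gave a second comparison of Cre with empty virus from other wells. It called 529 genes (3.41%), 309 up and 220 down. Of the 199 genes that rose at rest 191 had a positive fold change there and 116 were called up (58.3%, against 1.99% of all genes). Of the 212 that fell at rest 194 had a negative fold change there and 91 were called down (42.9%, against 1.42% of all genes). For the genes that rose, the median log2 fold change was 0.27 with TRAP-6 and 0.34 at rest; for those that fell, it was -0.20 with TRAP-6 and -0.33 at rest. Genes called the same way with TRAP-6 and at rest numbered 207, among them, with their TRAP-6 values, Ogn (1.00), Col3a1 (0.58), Gas6 (0.56), Adamts5 (0.48), Mmp10 (-0.81), Rgs16 (-0.59), Lif (-0.44) and Grem1 (-0.35).

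Some falls seen at rest were smaller after TRAP-6, and a test of the difference between the 2 Cre effects called 25 genes (0.161%), 24 with a more positive effect under TRAP-6 (0.155%) and 1 with a more negative one (0.00644%). Il1rl1 fell by 0.25 with TRAP-6 and by 1.04 at rest, a difference of 0.79 ± 0.09 (adjusted p = 8.22e-06). In the TRAP-6 wells it had 73.7 ± 2.63 CPM with Cre virus and 87.2 ± 7.46 CPM with empty virus (SD, n = 3 each). Neat1 changed direction, with a log2 fold change of 0.55 with TRAP-6 and -0.60 at rest, called in both (difference 1.15 ± 0.11; adjusted p = 0.000359), and Lmcd1 and Spaca6 did the same, Lmcd1 at 0.32 with TRAP-6 and -0.42 at rest and Spaca6 at 0.41 with TRAP-6 and -0.35 at rest. The resting call of Spaca6 was lost in 4 of the 6 fits without 1 library. Serpinb2 was at -0.03 with TRAP-6 and at -0.63 at rest, and with TRAP-6 it had 64.5 ± 3.62 CPM with Cre virus and 65.8 ± 5.73 CPM with empty virus, and Thbd was at -0.10 with TRAP-6 and at -0.50 at rest, with TRAP-6 levels of 1055 ± 48.0 CPM with Cre virus and 1129 ± 68.6 CPM with empty virus. Ankrd1, Plau, Tnc, Cck, Usp2, Ptprn, H1f2, Rsbn1 and Aldh1a3 were also called for this difference. The resting libraries enter both the resting effect and this difference, so each is given with both values. The count of 25 was 7 without resting Cre replicate 1 or 3, 11 without resting empty-virus replicate 1, 8, 9 and 15 without TRAP-6 empty-virus replicate 1, TRAP-6 Cre replicate 2 and TRAP-6 Cre replicate 1, and 43 without TRAP-6 Cre replicate 3.

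**Figure D5:**
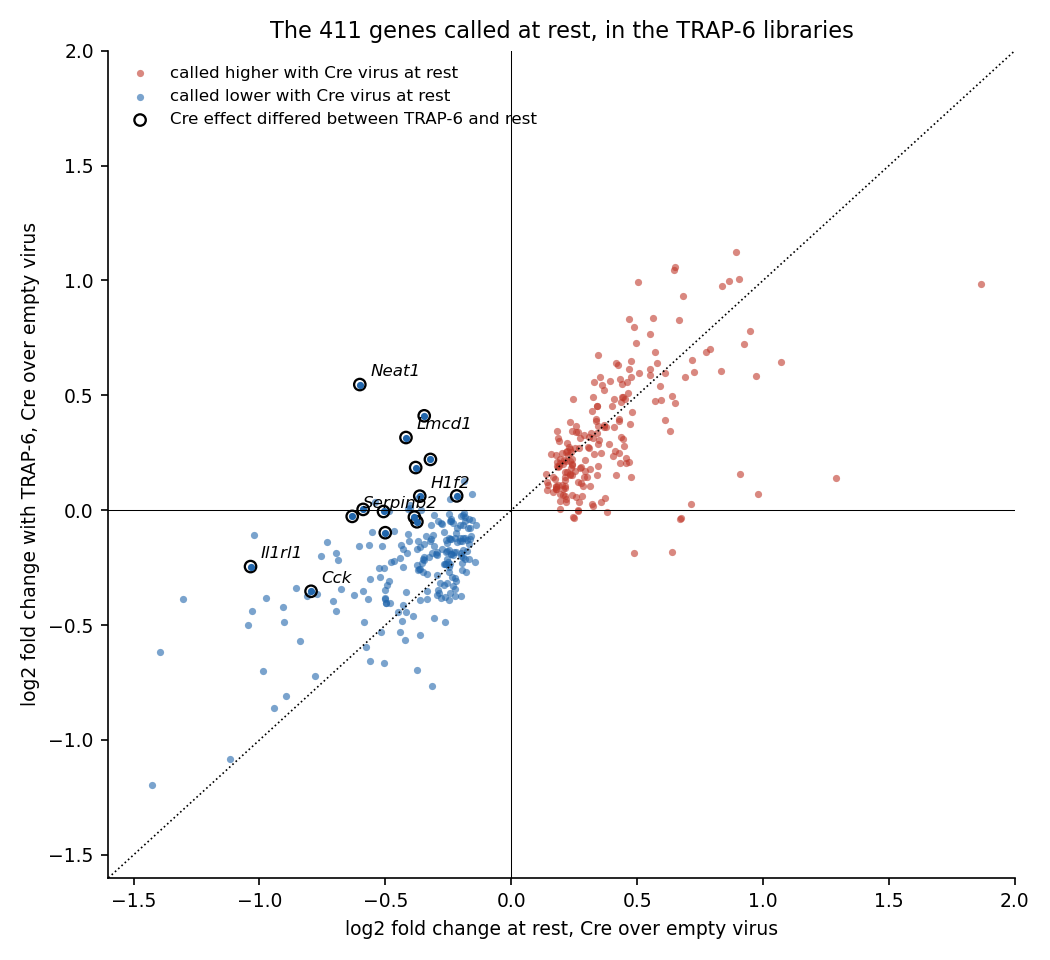
Log2 fold change, Cre over empty virus, of the 411 genes called at rest (horizontal axis) and of the same genes in the TRAP-6 libraries (vertical axis); red points were called higher and blue points lower at rest, the dotted line marks equality and circles mark genes whose Cre effect differed between TRAP-6 and rest. Most points lie in the quadrants of equal sign, and the circled genes include Neat1 with 0.55 with TRAP-6 and -0.60 at rest.

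The same viruses were applied to resting lung fibroblasts from Gai*-BERKY3 and Ga13*-BERKY3 mice, with 3 libraries per group. With edgeR's test within each line, Cre against empty virus called 0 of 15980 genes in the Gai line, 407 having an unadjusted p under 0.05, and 1 of 15835 (0.00632%) in the Ga13 line, where 783 had one. The gene called there was Gt(ROSA)26Sor, at 1.04 ± 0.18 (adjusted p = 0.0443), which stood at 0.67 ± 0.15 in the Gai line (adjusted p = 0.999). Its difference between the Gaq and Ga13 lines, -0.88 ± 0.27, did not pass (adjusted p = 0.512). Of the 199 that rose, 132 were positive in the Gai line (median 0.05) and 120 in the Ga13 line (median 0.02), where 49.5% and 50.1% of all genes were positive. Of the genes that fell, 112 of 211 measured were negative in the Gai line (median -0.01) and 168 of 212 in the Ga13 line (median -0.06). Il1rl1 stood at -0.02 in the Gai line and -0.31 in the Ga13 line, Cck at -0.13 and -0.27, Col14a1 at 0.06 and 0.20, and Rgs16 at -0.05 and -0.04. The interferon-stimulated list had a median of 0.45 in the Ga13 line and 0.09 in the Gai line.

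Tested directly over all 36 fibroblast libraries, the Cre effect of the resting Gaq line differed from that of the resting Gai line in 4 of 16749 genes (0.0239%), with a more positive effect in 3 (0.0179%) and a more negative one in 1 (0.00597%). It differed from that of the Ga13 line in 0 genes by edgeR and in 10 by DESeq2, with 1082 at an unadjusted p under 0.05 by edgeR. The spread between replicates was wider in the Gai line, with a biological coefficient of variation of 0.0911, against 0.0649 in the Gaq line and 0.0678 in the Ga13 line, and in this joint fit 182 genes of the resting Gaq comparison were called. Efemp1, an elastic-fibre-associated glycoprotein gene, had 46.5, 47.0 and 41.9 CPM in the Cre libraries of the Gaq line and 28.0, 29.2 and 29.6 CPM in its empty-virus libraries (0.64 ± 0.07), against a fold change of -0.01 in the Gai line. The difference was 0.65 ± 0.11 (adjusted p = 0.00481). Sema3c, a secreted guidance cue, rose by 0.41 in the Gaq line and stood at -0.08 in the Gai line, Pdzd2 at 0.79 and -0.11, and Gfod1 at -0.41 and 0.05. A fit of the Gaq and Ga13 libraries alone, added after the data were seen, called 50 differences between those lines, and one of the Gaq and Gai libraries alone called 9 between those.

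Wells of the Ga13 line with empty virus, which share no library with the Gaq comparison, gave the response to TRAP-6 itself: 614 of 15835 genes were called there (3.88%). Of the 212 genes that fell with Cre virus in the Gaq line 36 rose with TRAP-6 there (17.0%, against 2.27% of all genes) and 20 fell (9.43%, against 1.61%). Of the 199 genes that rose with Cre virus 5 rose (2.51%) and 8 fell (4.02%) with TRAP-6. Nr4a2 rose by 1.2, Nr4a3 by 0.75, Ptgs2 by 0.55, Ankrd1 by 0.40 and Dusp5 by 0.36 on the log2 scale with TRAP-6, while Bdkrb2 fell by 0.82, Neat1 by 0.69 and Lif by 0.43.

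Of 131 called genes followed through the alternatives, 72 kept their call in each of the 6 fits that left out 1 resting library and none changed sign. By symbol, 405 of the 411 called genes were found in a GENCODE annotation, and 112 of them share exonic bases with a gene on the opposite strand and 27 with another gene on the same strand. Strandedness of the counting is not given in the sources used here, so reads of such pairs (Rgs16, Gas6, Timp3, Thbs1, Dusp5, Tnc and Usp2 among those above) cannot be told apart from those of their partners.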

How the data were processed

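RNA was sequenced from poly-A selected libraries of primary mouse lung fibroblasts. The authors deposited 1 table of whole-number read counts per gene for each line, with 12 libraries in the Gaq table; fastp, Subread and featureCounts and the build GRCm39 are named in the submitters' processing notes, while strandedness and annotation are not given in the sources used here. The 13 mitochondrial protein-coding entries were 0 in the Gaq table, and the biosensor entry was left out of gene counts.

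Counts were fitted with edgeR 4.0.16 (R 4.3.3, quasi-likelihood with robust dispersion) over all 12 Gaq libraries with 4 group means, default low-count filter and TMM scaling, and p-values were Benjamini-Hochberg adjusted over all genes with a threshold of 0.05. CPM values are TMM-scaled. The other lines were fitted separately, and differences between lines in 1 fit of 36 libraries. DESeq2 1.42.0, limma 3.58.1 (voom), other scalings and filters, a replicate block and leaving out each library were alternatives.

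Genes were named by rule: in each direction the 12 largest called changes among genes averaging 1 CPM or more in a group, the 6 smallest p, up to 4 called genes of each list (2 uncalled where none was called), and fixed pathway genes; further members of lists were named after their values were seen. The comparison and the gene lists were chosen with earlier results of these data known. Results for some genes that were called are not reported here.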

Additional observations from a re-analysis of the deposited data

Results flagged for a closer look

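The effect of Cre virus in the Gaq line differed between TRAP-6 and rest, by a test of the difference itself, in 25 genes. Of those called at rest, the log2 differences (effect with TRAP-6 minus effect at rest) were 1.15 for Neat1, 0.79 for Il1rl1, 0.76 for Spaca6, 0.73 for Lmcd1, 0.60 for Serpinb2, 0.59 for Usp2, 0.57 for Plau and 0.54 for Aldh1a3. They were 0.50 for Rsbn1, 0.44 for Cck, 0.42 for H1f2, 0.40 for Thbd, 0.35 for Ptprn, 0.32 for Ankrd1 and 0.28 for Tnc. The resting libraries enter each difference and also the resting calls by which these genes were picked.

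The effect of Cre virus at rest differed between the Gaq and Gai lines in 4 genes, tested in 1 fit of all 36 fibroblast libraries. The log2 differences, Gaq minus Gai, were 0.90 for Pdzd2, 0.65 for Efemp1, 0.50 for Sema3c and -0.46 for Gfod1.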

How the results depend on the processing

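The resting count of 411 stayed within 1.5 times under other scalings, filters and tools (412 to 544) and in a fit of the 6 resting libraries alone (359), and leaving out 1 library each gave 259 to 523. Those fits kept 59.1% to 83.5% of the 411 calls in the same direction, DESeq2 98.3% and the fit of the resting libraries alone 79.8%. The count of 25 genes whose Cre effect differed between TRAP-6 and rest was 41 by DESeq2, 67 with no filter and 7 to 43 without 1 library. Of the differences between lines, the 4 from the Gai line became 32 by DESeq2, 67 with no filter, 9 in a fit of those 2 lines alone and 2 to 9 without 1 library, and the 0 from the Ga13 line became 10, 38, 50 and 0 to 4. The cause was not tested. The fits of 2 lines alone were added after seeing the data. No followed gene that was called in the main or the alternative fit changed sign. The signs of list medians were not compared.

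Same-numbered Cre and empty-virus libraries hardly deviated together (correlations of 0.0223, 0.0218 and 0.0575). Replicates 2 and 3 correlated best with their own number, and replicate 1 did not. The labels do not say whether the numbers mark a pairing, and they were not taken as one. With the replicate number as a block the counts were 751 for the resting comparison and 91 for TRAP-6 minus rest. They were 188 and 145 for the differences from the Gai and Ga13 lines. Without the block these 4 counts were 411, 25, 4 and 0. Whether same-numbered libraries share a source was not tested.

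With 3 libraries per group and 17448955 to 32710883 counts in each, a gene that missed the threshold is not shown to be equal in the groups.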
